A study of Mus musculus with 13 samples.

Results

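The 45 receptors described here bind neuropeptides, gut peptides or natriuretic peptides. They were chosen by gene symbol, without opioid and galanin receptors, and all 45 were found among the 23857 symbols shared by the 12 immunopurified (IP) libraries and among the 22682 shared with the input. The tissue was medial habenula of adult Chat-TRAP DW167 mice, whose cholinergic cells carry a ribosomal protein fused to GFP, so that anti-GFP beads pull down mRNA on the ribosomes of those cells (translating ribosome affinity purification, TRAP). There were 6 IP libraries of Chat-TRAP DW167 mice, called wild type here, 6 IP libraries of Gpr151-KO::Chat-TRAP DW167 mice, and 1 unpurified input library of the first genotype. Both genotypes thus carry the TRAP transgene, and the knockout animals also carry a knockout of Gpr151, an orphan receptor gene of the habenula. Each library pooled 4 mice, or 3 mice for libraries 852 and 855, and is named by its library number.

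Most neuropeptide receptors are G protein-coupled. Receptors coupled to Gi lower cyclic AMP and tend to quiet a neuron, those coupled to Gs raise cyclic AMP, and those coupled to Gq raise calcium. The natriuretic peptide receptors Npr1 and Npr2 are instead single-pass enzymes that make cyclic GMP when a peptide binds, while Npr3 mainly takes the peptides up. Medial habenula neurons make acetylcholine or substance P, send their axons to the interpeduncular nucleus, and are known for their part in nicotine aversion and withdrawal.

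Counts assigned to genes ran from 28375912 to 64388596 per IP library and were 54701790 in the input. The 18 medial habenula markers summed to 6760 to 9080 CPM (counts scaled to the library's gene total) in wild-type IP and to 1421 CPM in the input, 16 of the 18 had a higher median in IP, and none was at 3 counts or fewer in every wild-type IP library. Gpr151 fell in knockout by 1.63 on the log2 scale (SE 0.17, edgeR adjusted p = 0.00592), and all 6 knockout libraries lay below all 6 wild-type libraries. Libraries 1091 (wild type), 1099 and 1102 (both knockout) had the highest mean log2 CPM of non-neuronal markers, 2.79, 3.45 and 3.23, against 0.688 to 2.20 in the other 9 IP libraries. Values that rest on these 3 libraries are given below with and without them.

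Of the 6 receptors that stood above input in every IP library, 4 have a RefSeq promoter window (up to 250 bases before the transcript start, GRCm38.p6) of which at least 217 bases lie ahead of the first annotated exon. These 4 windows are shown so that their base composition can be set beside the levels of the genes. They are Sstr2 at chr11:113619077-113619326 on the plus strand, Sstr4 at chr2:148395127-148395343 on the plus strand, Npr1 at chr3:90465867-90466116 on the minus strand and Rxfp2 at chr5:150018425-150018674 on the plus strand, each written 5′ to 3′ along its gene. Capitals mark matches, on either strand, to 4 motifs that were searched: the cyclic AMP response element TGACGTCA, the NBRE of the Nr4a orphan receptors AAAGGTCA, the GC box GGGCGG and the POU core ATTAAT.
Sstr2: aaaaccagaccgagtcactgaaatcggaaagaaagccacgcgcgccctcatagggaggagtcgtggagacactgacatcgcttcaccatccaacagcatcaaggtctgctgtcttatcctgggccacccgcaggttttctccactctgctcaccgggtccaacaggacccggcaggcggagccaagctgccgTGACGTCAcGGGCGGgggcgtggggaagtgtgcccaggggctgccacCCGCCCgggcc
Sstr4: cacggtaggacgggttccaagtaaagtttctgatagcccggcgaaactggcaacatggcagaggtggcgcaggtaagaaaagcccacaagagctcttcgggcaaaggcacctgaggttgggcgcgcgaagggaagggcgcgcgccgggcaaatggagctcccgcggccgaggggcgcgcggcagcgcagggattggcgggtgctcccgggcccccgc
Npr1: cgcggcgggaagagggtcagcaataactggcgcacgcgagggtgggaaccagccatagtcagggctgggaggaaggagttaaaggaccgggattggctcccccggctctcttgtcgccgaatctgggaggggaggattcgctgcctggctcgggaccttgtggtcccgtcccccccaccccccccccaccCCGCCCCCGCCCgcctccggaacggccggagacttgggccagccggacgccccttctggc
Rxfp2: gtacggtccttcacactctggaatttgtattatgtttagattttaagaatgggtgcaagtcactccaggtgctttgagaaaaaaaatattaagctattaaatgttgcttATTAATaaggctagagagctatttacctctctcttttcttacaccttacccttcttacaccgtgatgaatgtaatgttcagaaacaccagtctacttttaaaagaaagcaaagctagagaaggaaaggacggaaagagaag
Sstr2 held 1 cyclic AMP response element followed by 2 GC boxes, Npr1 2 GC boxes on its opposite strand, Rxfp2 1 POU core, and the window of Sstr4 none of the 4 motifs. Of the 38 receptors with a window of 250 bases in the table, 1 held TGACGTCA, 0 AAAGGTCA, 15 GGGCGG and 1 ATTAAT. The same motifs were in 1.55%, 1.34%, 32.7% and 4.39% of all 32851 RefSeq windows of that length. The median GC content was 57.6% over the 38 receptors and 52.4% over all windows, and Rxfp2, at 36.0%, was the lowest of the 4 printed. A match describes these letters only and is no evidence that a factor binds there.

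Few of the receptors were abundant on the ribosomes of these cells. In wild-type IP, 13 of the 45 had at least 1 CPM in each of the 6 libraries, or 28.9%, against 50.4% of all 22682 genes. In the input, 32 of the 45 reached 1 CPM, or 71.1%, against 58.1% of all genes. The receptors' share was thus under that of all genes in IP and over it in the input, a description without a test. The IP share asks for 1 CPM in each of 6 libraries and the input share in 1 library only, so these are unlike measures. A further 15 reached 1 CPM in some wild-type libraries only and 17 in none. Avpr1b, Glp2r and Sstr5, receptors for vasopressin, glucagon-like peptide 2 and somatostatin, had 3 counts or fewer in each wild-type library, and 3 counts is the limit that a count of 0 allows (0.0513 to 0.106 CPM in these libraries, counting error only).

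Divided by the length of their exons, the receptors had a steep order in wild-type IP. Sstr2 led with 32.6 ± 4.69 CPM per kb, followed by Sstr4 with 30.7 ± 8.16, Tacr1 with 23.3 ± 2.71, Calcrl with 11.2 ± 2.42 and Npr1 with 9.93 ± 3.08 (SD, n = 6 each). At this level Sstr2 lay above 94.2% of all genes with a known length and Npr1 above 81.5%. Then came Adcyap1r1 with 3.53 ± 2.3 CPM per kb, Npr2 with 2.79 ± 0.58, Rxfp2 with 1.87 ± 0.63, Prokr2 with 1.77 ± 0.88, and Mchr1 and Trhr with 0.96 ± 0.45 and 0.96 ± 0.33. All other receptors were lower, from 0.88 CPM per kb for Npy1r down to 0.00099 for Avpr1b. Among these neighbours only Tacr1 and Calcrl had ranges that did not overlap, with Tacr1 higher in 6 of 6 libraries. Sstr2 and Sstr4 were each the higher of the pair in 3 of 6 libraries, so their order is not resolved.

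**Figure D1:**
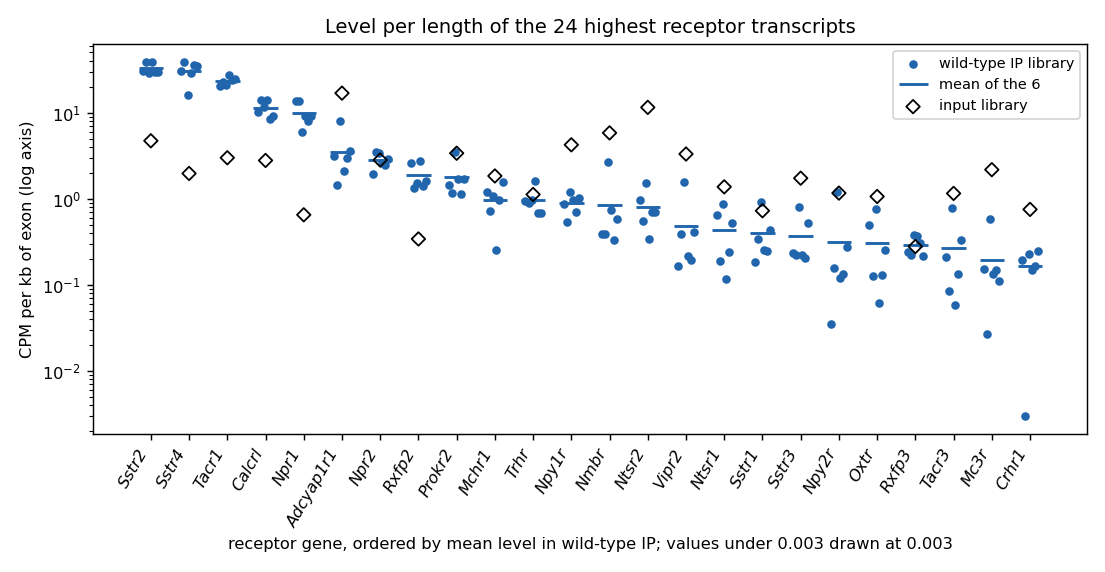
Level per length of the 24 highest receptor transcripts, in CPM per kb of exon on a log axis. Each blue point is 1 of 6 wild-type IP libraries, the bar is their mean and the open diamond is the single input library. The first 5 receptors lie far above their input diamonds, while Adcyap1r1, Npy1r, Nmbr and Ntsr2 lie below theirs.

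IP and input were then compared to ask which receptor transcripts were concentrated on the ribosomes of the tagged cells. With 1 input library the spread of the input was not measured, so a rule of size was used, and a test that borrows the spread of the IP libraries follows below. The names of the deposited tables mention saline for 10 of the 12 IP libraries and both saccharin and saline for the input, while the labels give no treatment, so the input and IP animals may differ in treatment. Enrichment was called where no wild-type IP library had less than 2 times the input value, 1 CPM being added to both, and depletion where the input had at least 2 times the value of every wild-type IP library. A level of 5 CPM was required, either in the input or as the wild-type IP mean. Of the 45 receptors, 18 met this minimum, and 6 were enriched, 6 depleted and 6 neither. Of all 11131 genes assessed, 5.83% were enriched and 8.33% depleted. The minimum lets a low gene in through the library type where it is high, so the same counts were taken with no minimum: again 6 and 6, now of all 45, against 3.06% and 5.39% of all 22682 genes. With no minimum, 6 of the 45 had an IP median above input, against 34.2% of all genes, and the median log2 ratio was -0.78 against 0.

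Sstr2 and Sstr4 encode Gi-coupled somatostatin receptors. Sstr2 (ENSMUSG00000047904.6, chromosome 11, 113619342 to 113626028, plus strand, 2 exons) had 62.2 CPM in the lowest wild-type IP library, a median of 64.2 and 83.6 in the highest, against 10.1 in the input. Sstr4 (ENSMUSG00000037014.4, chromosome 2, 148395344 to 148396767, plus strand, 1 exon) had 22.7, 46.3 and 55.6 CPM against 2.80. All 6 libraries were thus above the input for both genes, and the median log2 ratio was 2.56 for Sstr2 and 3.64 for Sstr4. The other 3 somatostatin receptors were not enriched. Sstr3, which is known for its place on primary cilia, had 0.87 to 3.44 CPM against 7.48 in the input, a median log2 ratio of -2.09, and would have been called depleted without library 1091. Sstr1 had 0.38 to 1.88 CPM against 1.48, and Sstr5 had 0 to 3 counts per library.

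Tacr1, the Gq-coupled receptor for substance P, held the most counts of the 45. It (ENSMUSG00000030043.11, chromosome 6, 82402334 to 82560104, plus strand) had 131 CPM in the lowest wild-type library, a median of 151 and 179 in the highest, against 19.4 in the input, a median log2 ratio of 2.90. Its range in wild type was narrow, with every library at least 6 times the input level before 1 CPM was added. The other tachykinin receptors were far lower: Tacr3, the neurokinin B receptor, had 0.22 to 2.94 CPM against 4.33 in the input, and Tacr2 was at 0 in 5 of 6 libraries and at 13 counts in library 1091.

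Calcrl encodes the Gs-coupled receptor that forms receptors for CGRP or adrenomedullin together with a RAMP protein. It (ENSMUSG00000059588.13, chromosome 2, 84330626 to 84425411, minus strand) had 41.0, 53.3 and 68.8 CPM as lowest, median and highest, against 13.6 in the input, a median log2 ratio of 1.89. Its relative Calcr, the calcitonin receptor, had 0 to 18 counts per wild-type library. Rxfp2, the Gs-coupled receptor for insulin-like peptide 3, is on chromosome 5 (ENSMUSG00000053368.13, 150018675 to 150082184, plus strand). Its levels were 7.58, 8.92 and 15.6 CPM against 1.94, a median log2 ratio of 1.76. Every wild-type library was above the input for both receptors, though with smaller ratios than for Tacr1.

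Npr1, the guanylyl cyclase that answers to atrial and B-type natriuretic peptides, had 28.4, 43.8 and 65.2 CPM against 3.11 in the input, a median log2 ratio of 3.45 (ENSMUSG00000027931.12, chromosome 3, 90450591 to 90465866, minus strand). The related cyclase Npr2, which prefers C-type natriuretic peptide, had 8.97, 12.8 and 16.3 CPM against 13.1, a median log2 ratio of -0.04. The 2 cyclases thus parted, with Npr1 above input in all 6 libraries and Npr2 on either side of it. Npr1 overlaps the antisense gene Gm16048 over 559 exonic bases, Npr2 overlaps Gm12473 over 266 and Rxfp2 overlaps Gm42557 over 294. The strand setting of the counting was not found in the labels, and reads of these pairs cannot be told apart.

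**Figure D2:**
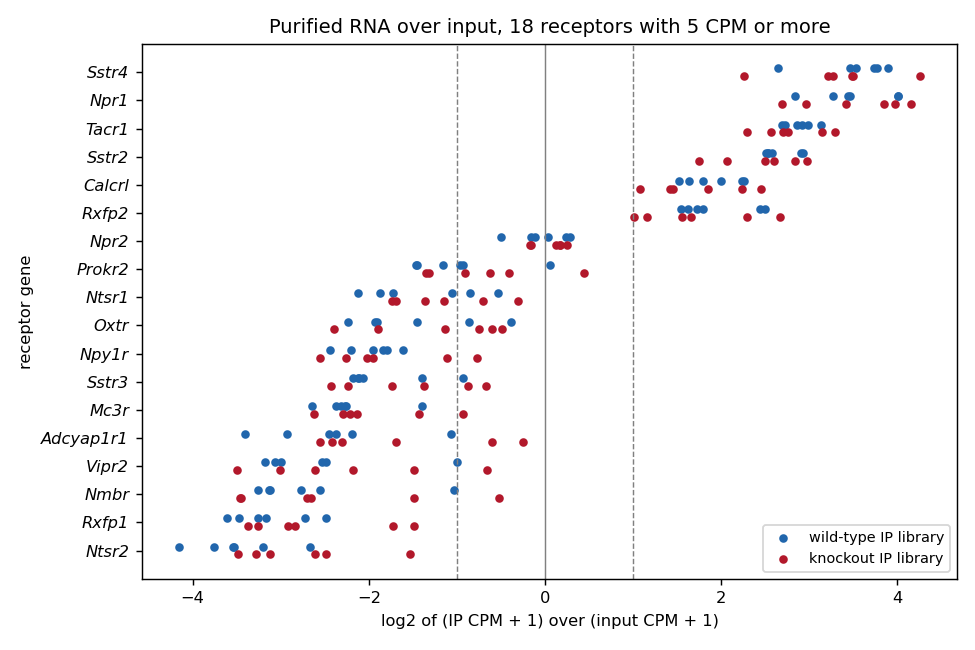
Log2 of (IP CPM + 1) over (input CPM + 1) for the 18 receptors with 5 CPM or more, with wild-type IP libraries in blue and knockout IP libraries in red, 6 each. Dashed lines mark a ratio of 2 in either direction. All 12 libraries of Sstr4, Npr1, Tacr1, Sstr2, Calcrl and Rxfp2 lie to the right of the upper line, and the points of the lower receptors spread over several log2 units.

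The 6 depleted receptors were Adcyap1r1, Npy1r, Nmbr, Ntsr2, Mc3r and Rxfp1. Adcyap1r1, the Gs-coupled receptor for the peptide PACAP, is the most abundant of them per length in the input, at 16.8 CPM per kb. It had 9.59 CPM in the lowest wild-type IP library, a median of 20.1 and 52.6 in the highest, against 111 in the input, a median log2 ratio of -2.41. All 6 wild-type IP libraries thus held Adcyap1r1 reads at a level under the input, and its 3 highest of the 12 IP libraries were 1091, 1099 and 1102. Ntsr2, a neurotensin receptor known from astrocytes, had 1.07, 2.18 and 4.80 CPM against 35.9, a median log2 ratio of -3.54. Nmbr, the Gq-coupled neuromedin B receptor, had 1.07, 1.58 and 8.65 CPM against 18.8 (-2.95), with library 1091 alone above 2.36 CPM. Nmbr overlaps the antisense gene B230364G03Rik over 504 exonic bases.

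Npy1r, the Gi-coupled Y1 receptor for neuropeptide Y, had 1.87, 3.20 and 4.12 CPM against 14.6 in the input (-1.90 on the log2 scale). Rxfp1, the relaxin receptor, had 0.071, 0.41 and 1.33 CPM against 12.1 (-3.21). Mc3r, a melanocortin receptor, had 0.070, 0.37 and 1.54 CPM against 5.70 (-2.29). In each of the 3 the input stood above all 6 wild-type IP libraries. The other receptors that were assessed but not called, beside Npr2 and Sstr3, were Prokr2, the prokineticin receptor (9.02, 12.4 and 27.8 CPM against 26.7, median log2 ratio -1.06), Vipr2, a receptor for VIP and PACAP (-2.76, and depleted without library 1091), Ntsr1 (-1.39) and Oxtr, the oxytocin receptor (-1.68). For all 4 of these the median lay under the input. Mchr1, the receptor for melanin-concentrating hormone, ranked 10th per length, at 0.55, 2.22 and 3.44 CPM against 4.02, and fell short of the minimum.

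By coupling, 2 of the 4 Gi-coupled receptors assessed were enriched and 1 depleted, 1 and 2 of the 6 Gq-coupled, 2 and 3 of the 6 Gs-coupled, and 1 and 0 of the 2 guanylyl cyclases, beside 5.83% and 8.33% of all genes assessed. Of the 6 depleted receptors, Adcyap1r1 alone had a wild-type IP mean of 5 CPM or more, and the other 5 met the minimum through the input. Of the 6 enriched receptors, Sstr4, Npr1 and Rxfp2 met it through the wild-type IP mean alone, with 2.80, 3.11 and 1.94 CPM in the input. The counts by coupling rest in part on these members. Within a family, Rxfp2 was enriched and Rxfp1 depleted.

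The 6 enriched receptors met the same rule in the 6 knockout IP libraries, where 6 receptors were enriched (4.19% of all genes assessed) and 2, Ntsr2 and Rxfp1, were depleted (5.2%). An edgeR fit over all 13 libraries, in which the spread of the IP libraries stands in for that of the single input, placed the same 6 receptors higher in IP (7.25% of all genes) and 6 lower (9.01%), with Hcrtr1, an orexin receptor, in place of Nmbr. Scaling by TMM raised the median log2 ratio of all genes by 0.21 and left 6 enriched receptors (8.5% of all genes) and 3 depleted ones (5.95%), Npy1r, Ntsr2 and Rxfp1. A ratio of 4 left 4 enriched (1.94% of all genes), Npr1, Sstr2, Sstr4 and Tacr1, and 2 depleted (1.92%), Ntsr2 and Rxfp1.

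Beside the depleted receptors, several lists of markers of other cells were also lower in IP than in the input. The 12 astrocyte markers summed to 156 to 1101 CPM in wild-type IP, 158 to 1900 CPM in knockout IP and 1927 CPM in the input, and none of the 12 had an IP median above input. The 12 oligodendrocyte markers summed to 149 to 799, 190 to 1458 and 2721 CPM, and the 9 GABAergic markers to 21.5 to 184, 60.7 to 357 and 601 CPM. The 7 choroid plexus markers went the other way as a sum, at 71.4 to 85.8 CPM in wild-type IP against 40.4 in the input. In knockout IP that sum was 60.7 to 83.9 CPM. Only 1 of the 7 had an IP median above input, and Aqp1 was at 3 counts or fewer in every wild-type library. The endothelial and mural sum was 7.47 to 50.1 CPM in wild-type IP (median 21.2), against 49.8 in the input. Of its 12 markers, 3 had an IP median above input. None of the markers in the first 3 lists was at 3 counts or fewer in all wild-type libraries. Their part in the values of the depleted receptors was not tested, and fewer cells of a type cannot be told apart from less RNA per cell.

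The depleted receptors followed the same 3 libraries. Their summed level was 14.98 CPM in the lowest wild-type library, 27.1 at the median and 73.0 in library 1091. In knockout it was 24.2 at the lowest, 36.8 at the median, 94.6 in library 1102 and 132 in library 1099, and 198 in the input. All 6 depleted receptors were highest in library 1099, as were 2759 of all 14317 genes tested. For 5 of the 6 the libraries 1091, 1099 and 1102 were the top 3 of 12, against 16.6% of all genes tested. The summed level of the 6 enriched receptors was 313 to 429 CPM in wild type (median 370) and 223 to 515 in knockout (median 346), against 50.9 in the input. None of the 6 enriched receptors was highest in any of these 3 libraries, against 35.9% of all genes tested, and library 1099 had the lowest sum. Both groups were chosen by their wild-type IP values, library 1091 included, over the input. Where they are highest is thus not independent of that choice. All genes tested were not chosen in that way, so the shares beside them are a description only.

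**Figure D3:**
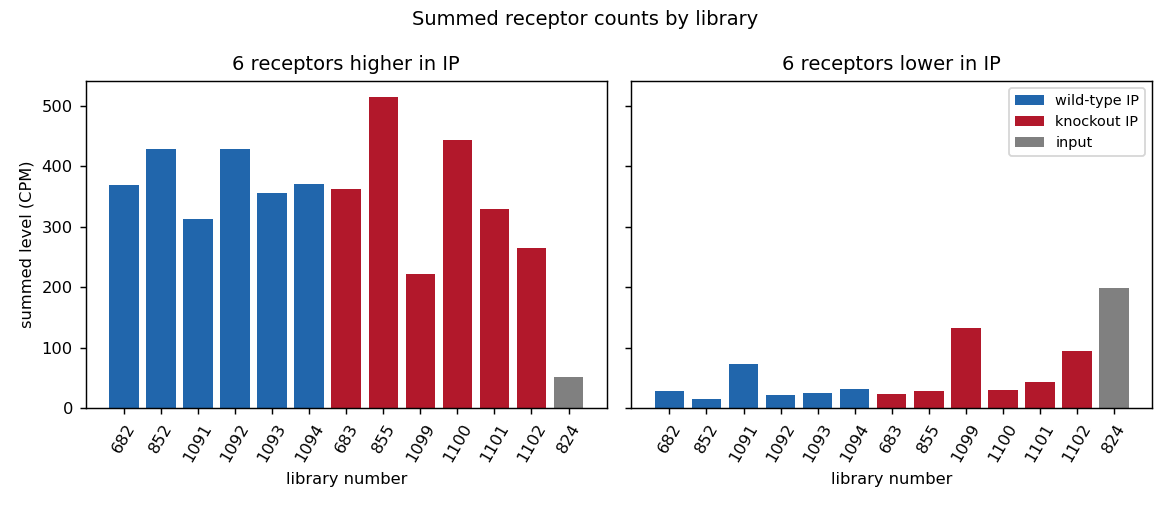
Summed CPM of the 6 receptors higher in IP (left) and the 6 lower in IP (right) in each library, with wild-type IP in blue, knockout IP in red and input in grey. On the right, libraries 1091, 1099 and 1102 reach 73.0, 132 and 94.6 CPM while the other 9 IP libraries stay between 14.98 and 42.7.

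Knockout and wild-type IP were compared to ask whether the Gpr151 knockout altered the receptor transcripts on these ribosomes. None of the 33 receptors with enough counts passed the edgeR test with p adjusted over all 14317 genes (0.014% of all genes passed; lowest adjusted p of a receptor 0.9989), and DESeq2 also called 0 (0.0838% of all genes). At an unadjusted p under 0.05 edgeR had 5 of 33 and DESeq2 6 of 33, against 3.06% of all genes in edgeR and 4.56% in DESeq2. The other 12 receptors had too few counts to be tested. For none of the 45 did the 6 knockout libraries all lie above or all below the 6 wild-type ones. The share of all genes with such a separation is not given here, so this count carries no comparison.

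The enriched receptors had similar levels in both genotypes. Tacr1 had 99.1 CPM in the lowest knockout library, a median of 135 and 199 in the highest, which spans its wild-type range, and a log2 fold change of -0.07 (95% interval -0.39 to 0.26). Sstr2 had 36.3, 63.8 and 86.4 CPM in knockout and a log2 fold change of -0.17 (-0.54 to 0.20). Sstr4 had 17.2, 38.6 and 71.9 CPM and -0.16 (-0.68 to 0.35). The knockout range of each of these receptors was wider than the wild-type one and contained it. Calcrl had 29.8, 45.2 and 78.8 CPM and -0.10 (-0.58 to 0.37), Npr1 25.6, 50.6 and 72.0 CPM and 0.05 (-0.35 to 0.45), and Rxfp2 4.93, 7.96 and 17.7 CPM and -0.21 (-0.90 to 0.48). For Tacr1, Sstr2 and Npr1 the intervals leave room for a change of at most 0.54 log2 units either way, and for Rxfp2 of up to 0.90. The sign of each of these 6 fold changes turned in some alternatives, which are listed with the effects of processing.

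The receptors with the smallest p and higher values in knockout were Calcr, Npr3, Sstr1, Ntsr2 and Rxfp1, none of them past the adjusted threshold. Calcr, the calcitonin receptor, had 0, 0.042 and 0.31 CPM as lowest, median and highest in wild type and 0.21, 0.29 and 0.79 in knockout, which is 2.11 ± 0.74 (SE) as a log2 fold change with an edgeR adjusted p of 0.9989. Npr3, the natriuretic peptide clearance receptor, had 0, 0.13 and 0.50 CPM against 0.33, 0.57 and 1.04, which is 1.86 ± 0.79 (SE) as a log2 fold change with an edgeR adjusted p of 0.9989. Both rest on few counts, at most 18 and 29 per wild-type library, and the knockout libraries above the highest wild-type value numbered 2 and 4 of 6. Npr3 shares 321 exonic bases with the antisense gene Gm5144.

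Sstr1 had 0.38, 0.61 and 1.88 CPM in wild type and 0.83, 1.26 and 3.61 in knockout (log2 fold change 1.05, SE 0.46, edgeR adjusted p = 0.9989). Ntsr2 had 2.3, 4.15 and 11.7 CPM in knockout (1.04, SE 0.46, edgeR adjusted p = 0.9989), and Rxfp1 0.26, 0.78 and 3.69 CPM (1.42, SE 0.63, edgeR adjusted p = 0.9989). All 3 were highest in library 1099. With the non-neuronal marker level as a covariate the fold changes were 0.58, 0.54 and 0.44, and without libraries 1091, 1099 and 1102 they were 0.81, 0.69 and 0.61. Those of Calcr and Npr3 were 1.91 and 1.76 with the covariate, and Npr3 was at 2.56 without the 3 libraries, where Calcr no longer had enough counts to be tested. Without library 1091 alone Calcr was at 3.36 and Npr3 at 2.62, with edgeR adjusted p of 0.552 and 0.650.

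On the lower side the smallest p belonged to Sstr2, Sstr4, Rxfp2, Calcrl and Rxfp3. Rxfp3, the Gi-coupled receptor for relaxin-3, had 0.92, 1.16 and 1.62 CPM in wild type and 0.49, 0.80 and 4.12 in knockout, and its fold change was -0.21 on the log2 scale, with SE 0.45 and an edgeR adjusted p of 0.9989. Its 2 earlier knockout libraries, 683 and 855, were the highest of all 12, while 3 later knockout libraries lay below every wild-type one.

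**Figure D4:**
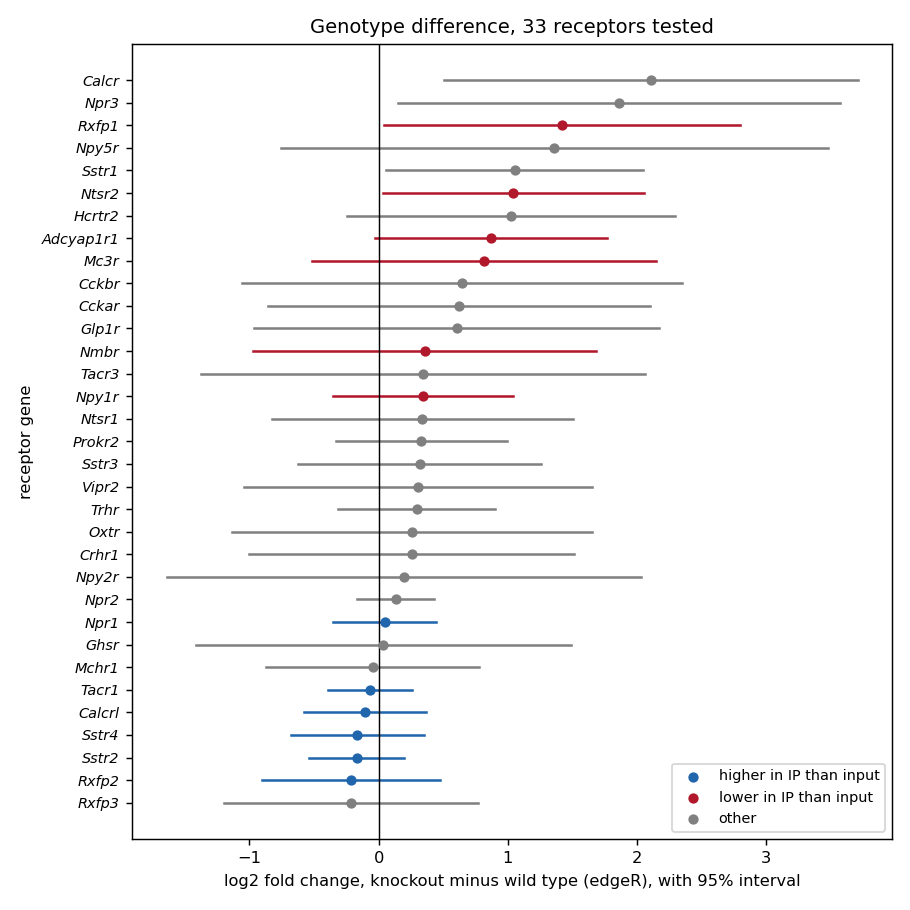
Log2 fold change of knockout over wild type for the 33 receptors tested, with 95% intervals from edgeR. Blue marks the 6 receptors higher in wild-type IP than input and red the 6 lower, both chosen by the wild-type values used here. The blue points lie between -0.21 and 0.05 and the red ones between 0.34 and 1.42, and no receptor passed the adjusted threshold.

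As a group, 26 of the 33 receptors tested had a log2 fold change above 0, with a median of 0.33, against 50.4% of all genes tested and a median of 0.002. Of the 6 enriched receptors 5 were below 0 (median -0.13), and all 6 depleted ones were above 0 (median 0.84). Both groups were chosen by the wild-type IP values that also enter these fold changes, so the split by sign is not independent of that choice. These counts describe the values and carry no test. Beside them, all 12 astrocyte, all 12 oligodendrocyte, all 7 tested GABAergic and all 6 lateral habenula markers also had fold changes above 0, with medians of 0.82, 0.79, 1.16 and 0.72, and 1 of 18 medial habenula markers did (median -0.19). All 6 ependymal markers were above 0 as well, and the remaining lists were mixed. Above 0 were 5 of 6 oligodendrocyte precursor, 6 of 8 microglial, and 8 of 11 endothelial and mural markers tested. So were 3 of 4 choroid plexus, 6 of 8 thalamic, 5 of 6 hippocampal and 2 of 4 hypothalamic markers tested. With the non-neuronal marker level as a covariate, the median of the 33 was 0.06 with 20 above 0, and that of the 6 depleted receptors 0.20 with 4 above 0. Without libraries 1091, 1099 and 1102 the median was 0.18 with 27 of 31 above 0, and that of the depleted receptors 0.39 with 4 of 6 above 0. Of the 6 enriched receptors, 5 were above 0 both with the covariate (median 0.018) and without the 3 libraries (median 0.044), so the split by sign did not hold in either.

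Whether the genotype difference itself changed between the 4 earlier and the 8 later IP libraries was tested as an interaction. edgeR called 0 of 33 receptors (0% of all genes; lowest adjusted p 1), as did DESeq2 (0.014% of all genes). At an unadjusted p under 0.05 edgeR had 1 of 33, against 2.27% of all genes, which is near that share. That receptor was Rxfp3, with an interaction of 2.43 log2 units (edgeR adjusted p = 1). Knockout minus wild type, in log2 CPM, was 1.96 for library 683 over 682, 0.82 for 855 over 852, and -0.98 for the mean of the later knockout over that of the later wild-type libraries.

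The ligands of these receptors were also read from the libraries, from a list of 44 peptide genes. Of the 8 assessed against input, Tac2, Nppa and Tac1 were enriched, and Nppc and Calca were depleted. Among all genes assessed, 5.83% were enriched and 8.33% depleted. Nppc and Calca met the minimum through the input alone, with wild-type IP means of 0.39 and 0.33 CPM. Tac2 (neurokinin B) had the highest level per length of the list, 480 ± 78.0 CPM per kb in wild-type IP against 59.8 in the input, while its main receptor Tacr3 had 0.27 ± 0.27 CPM per kb. Tac1, the precursor of substance P, had 17.3 ± 4.14 CPM per kb against 6.14 in the input, beside Tacr1 at 23.3 ± 2.71 (SD, n = 6 each). Both the ligand Tac1 and the receptor Tacr1 were thus enriched in the same purified RNA, whereas for Tac2 the ligand was enriched and Tacr3 was low. Tac2 is also one of the medial habenula markers.

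The natriuretic peptides showed a similar pairing. Nppa, the precursor of atrial natriuretic peptide, had 80.1 CPM in the lowest wild-type IP library, a median of 121 and 194 in the highest against 2.3 in the input, a median log2 ratio of 5.20, beside its enriched receptor Npr1. Nppc, the precursor of the Npr2 ligand, had 0.24, 0.30 and 0.88 CPM against 5.25 (-2.27). Nppa and Npr1 were therefore both high in IP, and Nppc low. Of 11 genes of the cyclic GMP pathway, 9 were assessed, and Pde2a and Gucy1a3 were enriched, against 5.83% of all genes assessed. Pde2a, a phosphodiesterase that cyclic GMP stimulates, had 242 ± 23.2 CPM per kb against 18.6 in the input, and Gucy1a3, a subunit of the nitric oxide receptor cyclase, 103 ± 29.6 against 14.7. The other 2 genes of the pathway with the highest levels were Gucy1b3 (75.9 ± 19.4 against 28.9) and Gucy1a2 (15.5 ± 11.2 against 16.8), neither of them called. Pde9a and Pde5a, phosphodiesterases that break down cyclic GMP, were depleted (median log2 ratios -2.60 and -2.15), against 8.33% of all genes assessed. Pde9a met the minimum through the input alone, with a wild-type IP mean of 1.65 CPM.

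For somatostatin and CGRP the ligand was low where the receptor was high. Sst, the precursor of somatostatin, had 0.99 CPM in the lowest wild-type IP library, a median of 2.79 and 11.9 in the highest, against 20.5 in the input. Calca, which encodes calcitonin and CGRP, had 0.019, 0.24 and 0.75 CPM against 5.98 (-2.49). The wild-type IP levels of both peptides lay under the input in all 6 libraries, while Sstr2, Sstr4 and Calcrl lay above it. Of 6 receptor accessory proteins 4 were assessed, and 3 were depleted, against 8.33% of all genes assessed. These were the Calcrl partners Ramp3 (3.83 ± 1.09 CPM per kb against 64.8, -3.79 on the log2 scale) and Ramp1 (-2.96) and the melanocortin receptor partner Mrap2 (-2.36). Ramp1 and Mrap2 met the minimum through the input alone. Ramp2 had 0.26 ± 0.08 CPM per kb against 0.73. Crcp, the CGRP receptor component, was the highest of the list at 19.8 ± 3.20 against 15.9 and was not called. Calcrl was thus enriched while its partners Ramp1 and Ramp3 were depleted, and Ramp2 fell short of the minimum and was not assessed. Ramp3 is also a thalamic marker, and the 8 thalamic markers summed to 1625 to 2334 CPM in wild-type IP, 1588 to 2872 in knockout IP and 3568 in the input, with 1 of 8 above input and none at 3 counts or fewer. Their part in the Ramp3 value was not tested.

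**Figure D5:**
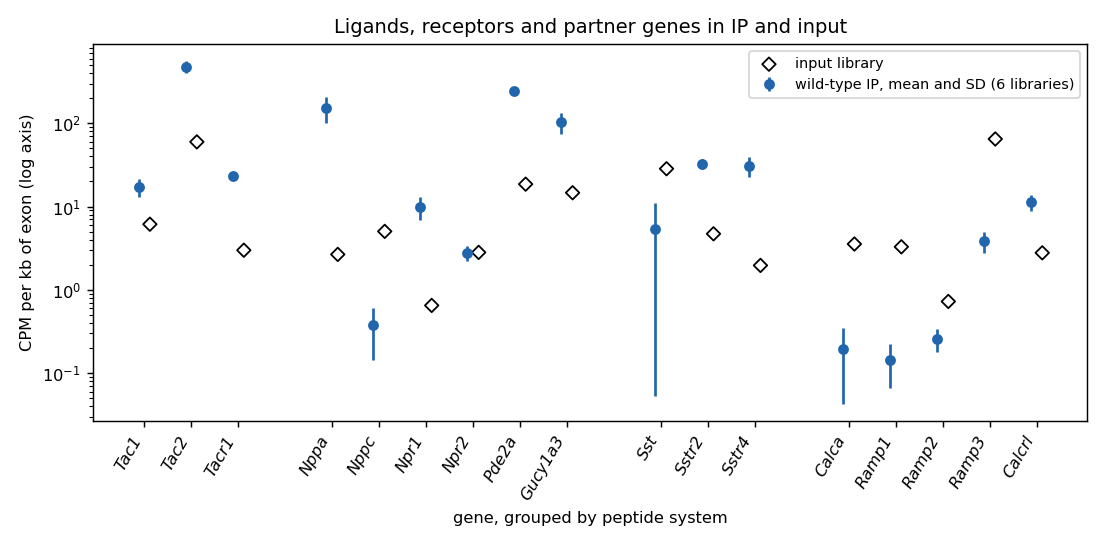
Levels of peptide ligands, receptors and partner genes in 4 peptide systems, in CPM per kb of exon on a log axis. Blue points are means of the 6 wild-type IP libraries with SD bars, and open diamonds are the input. Tac1, Tac2, Tacr1, Nppa, Npr1, Pde2a, Gucy1a3, Sstr2, Sstr4 and Calcrl lie above their input, and Nppc, Sst, Calca and the Ramp genes below.

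Among 32 other peptide receptors, 5 were assessed and 0 were enriched, against 5.83% of all genes assessed. Ednrb, an endothelin receptor known from astrocytes, and Npsr1, the neuropeptide S receptor, were depleted (median log2 ratios -2.97 and -2.94), against 8.33%. Both met the minimum through the input alone. The 4 highest per length were Kiss1r, the kisspeptin receptor (2.02 ± 0.43 CPM per kb against 1.02 in the input), Trhr2 (1.34 ± 0.28 against 3.42), Ednra (1.22 ± 0.29 against 0.49) and Ednrb (0.69 ± 0.64 against 5.80). The highest of these was under the 7 leading receptors of the 45. Cck, the precursor of cholecystokinin, followed Tac2 and Nppa among ligands at 100.1 ± 23.9 CPM per kb against 277 in the input and was not called, while its receptors Cckar and Cckbr had 0.16 ± 0.17 and 0.075 ± 0.058 CPM per kb.

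Between genotypes, edgeR called 1 of the 15 ligands tested, Oxt, the precursor of oxytocin, against 0.014% of all genes. None of the 5 accessory proteins, 8 other receptors and 10 cyclic GMP genes tested was called. At an unadjusted p under 0.05 edgeR had 3, 1, 0 and 1 of these lists in turn, against 3.06% of all genes. DESeq2 likewise called Oxt alone, against 0.0838% of all genes. Oxt had 1 to 3 counts per wild-type library and 16 to 47 per knockout library (4.03 ± 0.44, SE, on the log2 scale; edgeR adjusted p = 0.00592). Oxt did not pass with the 8 later libraries (edgeR adjusted p = 0.424), the 4 earlier ones (0.682), without library 683 (0.0538) or without libraries 1091, 1099 and 1102 (0.253), and a filter of 1 CPM removed it. Its receptor Oxtr had 0.29, 0.92 and 3.64 CPM in wild type and 0.15, 2.20 and 3.35 in knockout, with a log2 fold change of 0.26 (-1.13 to 1.65; edgeR adjusted p = 0.9989). The ranges of Oxtr overlapped between the genotypes. In the input, Oxt had 2.34 CPM.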

How the data were processed

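Messenger RNA of medial habenula was sequenced after TRAP (12 libraries) or without it (1 input library), following amplification with the Ovation V2 kit, per the labels' protocols. The deposited values are raw counts of reads per gene symbol, and the submitters' processing notes name STAR 2.3.0e, HTSeq, DESeq2 and build mm10. Annotation and strand setting: not given in the sources used here. Lines without a gene were left out. The 4 earlier IP libraries listed 32531 symbols, the 8 later ones 24454 and the input 37328. The ribosomal precursor Rn45s took 2.25% to 12.6% of IP counts.

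CPM are counts over a library's gene total, divided by merged GENCODE M21 exon length where genes are compared. Genotypes were compared with edgeR 4.0.16 (R 4.3.3, limma 3.58.1): filterByExpr (minimum count 10, total 15), TMM, library set as a term (682 with 683, 852 with 855, and the later 8), robust quasi-likelihood test, Benjamini-Hochberg adjustment over all genes, threshold 0.05, with DESeq2 1.42.0 as an alternative. Fitting and calling were also run on simulated counts, without a library set effect and with changes only in genes above 1 CPM. The outcome is not given here and carries no information on receptors under that level. Replicates are pools of mice, and no replicate number is shared between groups.

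Values are given by sample for the 10 receptors highest per length, all called against input, and the 5 smallest p per direction between genotypes; in related lists, for called genes and the 4 highest per length. The non-neuronal score is the mean log2 CPM (prior count 2) of astrocyte, oligodendrocyte, precursor, microglial and vascular markers. The receptors, lists and tests were chosen with earlier results of these data known. Alternatives covered tool, scaling, filters, pseudocount, ratio, libraries and covariate; that without libraries 1091, 1099 and 1102 and that with totals over shared symbols were chosen after seeing the data.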

Additional observations from a re-analysis of the deposited data

Results flagged for a closer look

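A wild-type IP library lay apart from the other 5 in 4 of 66 groups of 6 libraries checked by Dixon's test. Gap over range was taken on log2 CPM (prior count 2), with a limit of 0.625, while the values below are in CPM. Chance alone gives about 1 in 20 groups. For 3 of the 4 groups the library that lay apart was 1091. Prokr2, the prokineticin receptor, had 27.8 CPM there against 9.02 to 13.5 CPM in the others. Nmbr, the neuromedin B receptor, had 8.65 CPM against 1.07 to 2.36 CPM. Sstr4, a somatostatin receptor, was instead lowest there, with 22.7 CPM against 40.8 to 55.6 CPM. Crhr1, a receptor for corticotropin-releasing factor, had 0 CPM in library 852, the shallowest, against 0.37 to 0.61 CPM.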

How the results depend on the processing

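No receptor was called between genotypes in any of 21 alternatives or for the interaction in any of 13. The genes called over all genes, 2 with all 12 libraries, numbered 12 with DESeq2, 1 with a filter of 1 CPM, 0 with the 8 later libraries, 1 without libraries 1091, 1099 and 1102 and 0 to 2 when each library was left out in turn, with 0 without library 683. Gpr151 was at -1.54 (edgeR adjusted p = 0.424) in the later libraries and -1.54 (edgeR adjusted p = 0.0538) without library 683, and past the threshold in the other 19 alternatives. Enriched receptors numbered 4 to 6 in 19 alternatives. Depleted receptors, 6 in the report, numbered 2 at a ratio of 4, 3 with TMM and 2 in knockout IP, and 4 to 9 in the other 16. Receptors at the level threshold in every wild-type library, 13 at 1 CPM, numbered 17 at 0.5 CPM, 10 at 2 CPM, 13 with TMM and 13 to 14 when each library was left out. No paired analysis was possible by replicate number because the labels give the groups no shared ones. The library set was a term in the genotype model, and without it 2 genes and 0 receptors were called.

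Small fold changes between genotypes turned in sign. With the 4 earlier libraries they were 0.0140 for Calcrl, -0.66 for Nmbr, -0.31 for Npy1r, -0.0396 for Prokr2, 0.17 for Rxfp2, 1.45 for Rxfp3, 0.0258 for Sstr2, 0.16 for Sstr4 and 0.21 for Tacr1. With the covariate they were 0.0299 for Calcrl, -0.35 for Nmbr, -0.0169 for Npy1r, 0.00579 for Rxfp2, 0.00359 for Sstr4 and 0.0628 for Tacr1. Without libraries 1091, 1099 and 1102 they were 0.10 for Calcrl, -0.15 for Nmbr, -0.18 for Npy1r, 0.0280 for Rxfp2, 0.0261 for Rxfp3, 0.0129 for Sstr2 and 0.0609 for Tacr1. Without the set term Rxfp3 was at 0.23. Leaving out each library in turn gave -0.32 to 0.00593 for Calcrl (above 0 without 1102 or 1092), -0.26 to 0.17 for Mchr1 (above 0 without 1101 or 1094), -0.24 to 0.93 for Nmbr (below 0 without 1099), -0.0949 to 0.14 for Npr1 (below 0 without 1100 or 1091) and -0.17 to 0.0101 for Tacr1 (above 0 without 1099). The causes were not tested. Receptors under about 1 CPM rest on few counts, where depth limits the precision.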
